A study of Homo sapiens with 18 samples.

Results

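The 8 genes described here encode the 3 HP1 proteins (CBX5 for HP1α, CBX1 for HP1β and CBX3 for HP1γ), the corepressor KAP1 (TRIM28) and 4 enzymes that methylate histone H3 on lysine K9 (SUV39H1, SUV39H2, SETDB1 and EHMT1, the gene of GLP). They were taken by gene symbol from the 60642 symbols counted in every library, each symbol was found, and all 8 passed the filter on low counts that left 15298 genes for testing. RNA was sequenced from MDA-MB-231 cells, an established human triple-negative breast cancer line, in 6 conditions with 3 replicates each. Cells were transfected with a control siRNA (siNS), with siRNA against HP1γ (siHP1γ) or with siRNA against the arginine methyltransferase PRMT5 (siPRMT5), and each was given the vehicle ethanol (Eth) or 100 nM of dexamethasone (Dex), a synthetic glucocorticoid that activates the glucocorticoid receptor (GR), for 8 h. The siRNAs were pools, 1 per target, and the depletion was transient. All cells came from 1 line, and no untransfected cells were compared. Effects of a pool on other RNAs and effects of losing its target cannot be told apart here. The study describes the replicates as biological without saying whether they were separate cultures. The p-values rest on a spread between replicates that was estimated for each gene over all 6 conditions together, with information from other genes. They do not measure the spread of the compared conditions alone. A library left out can therefore move the p-values of comparisons that it is not part of. The question asked of the 8 genes was whether HP1α, HP1β or the H3K9 methyltransferases change in RNA level when HP1γ or PRMT5 is depleted.

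HP1 proteins are small chromatin adaptors. Their chromodomain binds the methylated K9 of histone H3, and their chromoshadow domain pairs one HP1 molecule with another and holds partner proteins. The methyltransferases SUV39H1 and SUV39H2 write H3K9 trimethylation in pericentromeric heterochromatin, SETDB1 writes it at sites to which KAP1 is brought by zinc finger proteins, and GLP works with G9a, its partner enzyme, to write mono- and dimethylation. HP1γ is also found in the bodies of active genes and can act as a coactivator of GR.

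Between 8682992 and 12472381 counts per library were assigned to genes, with a median of 10020976. Levels are given as CPM (counts per gene with every library brought to the same total, corrected by TMM for differences in RNA composition). The libraries carried the marks of the line: VIM was between 5444 and 9592 CPM and EGFR between 114 and 264 CPM in all 18 libraries, AXL between 182 and 1003, CAV1 between 370 and 824 and CD44 between 506 and 857, whereas ESR1, PGR and CDH1 were at or below 0.22 CPM. AXL and EGFR were not even across conditions. In siPRMT5 cells they were at 182 to 226 and 114 to 161 CPM, and in siNS cells at 782 to 1003 and 241 to 264 CPM. PRMT5 was between 226 and 262 CPM in siNS cells and between 6.10 and 11.5 CPM in siPRMT5 cells, or 2.97% of siNS with Eth and 4.39% with Dex. In siHP1γ cells PRMT5 was between 206 and 211 CPM with Eth and between 177 and 199 CPM with Dex, below every siNS library. Each comparison was called by edgeR's quasi-likelihood test over all 15298 genes, at a Benjamini-Hochberg adjusted p under 0.05 for the depletions and for the Dex response under 0.01 together with a change of 1.5-fold or more. The depletions with Dex share the siNS Dex libraries, and those without Dex share the siNS Eth libraries.

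CBX3, the target of siHP1γ, fell to a few percent of its control level. In siNS Eth cells it was at 274, 234 and 258 CPM, and in siHP1γ Eth cells at 9.23, 9.91 and 10.5 CPM, which is 3.87% of the siNS mean. With Dex it was at 220.4, 241 and 229 CPM in siNS cells and at 15.8, 14.0 and 11.4 CPM in siHP1γ cells, or 5.96% of siNS. The libraries of depleted and control cells were more than an order of magnitude apart. The log2 fold change was -4.69 (SE 0.11, adjusted p = 1.21e-20) with Eth and -4.06 (SE 0.10, adjusted p = 1.12e-19) with Dex. RNA was taken from whole cultures, so fewer cells that hold CBX3 RNA and less of it per cell cannot be told apart. CBX3 lies on chromosome 7 (chr7:26201162-26213607 on hg38, plus strand) head to head with HNRNPA2B1, an RNA-binding protein gene whose annotation overlaps it by 368 bases on the other strand, and the strand setting of the counting is not given in the sources used here. HNRNPA2B1 was at 89.9% of siNS in siHP1γ Eth cells (log2 fold change -0.15, adjusted p = 0.038) and at 91.1% with Dex (-0.13, adjusted p = 0.084), so the counts of CBX3 fell far more than those of its neighbour.

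Processed pseudogenes of HP1 genes, which are intronless copies of the mRNA elsewhere in the genome, share long stretches with their parents, and a read can be counted at either. The copy CBX3P9 (chr6:116453014-116453565, minus strand) had 4598 counts over the 18 libraries, far more than any other of the 8 CBX3 pseudogenes with a row, of which CBX3P1 came next with 111. Over the coding sequence of CBX3, 536 of 550 aligned bases (97.5%) are the same in CBX3P9, with identical runs of up to 135 bases. CBX1 and CBX5 are much further away, at 72.4% and 73.6% identity with CBX3 and with identical runs of at most 14 and 19 bases, and at 72.1% with each other. The 90 bases of coding sequence in which the 3 HP1 genes are most alike, which lie in the part that encodes the chromoshadow domain, are shown from GENCODE 44 on hg38 so that the distance between paralog and pseudogene can be seen. They span coding positions 396 to 485 of CBX3, CBX3P9 and CBX5 and 384 to 473 of CBX1, and capitals mark bases that differ from CBX3.
CBX3: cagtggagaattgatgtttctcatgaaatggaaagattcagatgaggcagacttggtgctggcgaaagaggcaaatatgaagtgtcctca
CBX3P9: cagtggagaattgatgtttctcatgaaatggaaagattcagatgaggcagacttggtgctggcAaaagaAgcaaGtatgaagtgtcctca
CBX1: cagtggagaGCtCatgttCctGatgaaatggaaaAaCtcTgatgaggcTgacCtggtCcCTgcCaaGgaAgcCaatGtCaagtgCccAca
CBX5: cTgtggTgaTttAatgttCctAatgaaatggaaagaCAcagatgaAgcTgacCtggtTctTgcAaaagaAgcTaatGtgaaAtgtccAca
In this most similar window CBX3P9 differs from CBX3 at 3 bases, CBX5 at 19 and CBX1 at 21.

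Counts on CBX3P9 fell with those on CBX3. They were between 351 and 424 per library in siNS cells, between 318 and 513 in siPRMT5 cells and between 8 and 20 in siHP1γ cells, with a log2 fold change of -5.43 (SE 0.17, adjusted p = 4.60e-18) with Eth and -4.84 (SE 0.16, adjusted p = 1.95e-17) with Dex in siHP1γ against siNS. As a share of the counts on CBX3 and CBX3P9 together, CBX3P9 held 12.7% to 15.4% in every siNS and siPRMT5 library and 6.40% to 10.3% in every siHP1γ library. Reads of the gene and of its copy cannot be told apart in these counts, so the level of CBX3 itself is uncertain. When the counts of each gene and its pseudogenes were added up, every call on the 8 genes in the comparisons of a depletion with siNS was as without them, except that SUV39H2 in siHP1γ Eth cells (-0.22) passed at an adjusted p of 0.0495. No pseudogene of SUV39H2 had a row, so its own counts were unchanged in that fit.

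**Figure D1:**
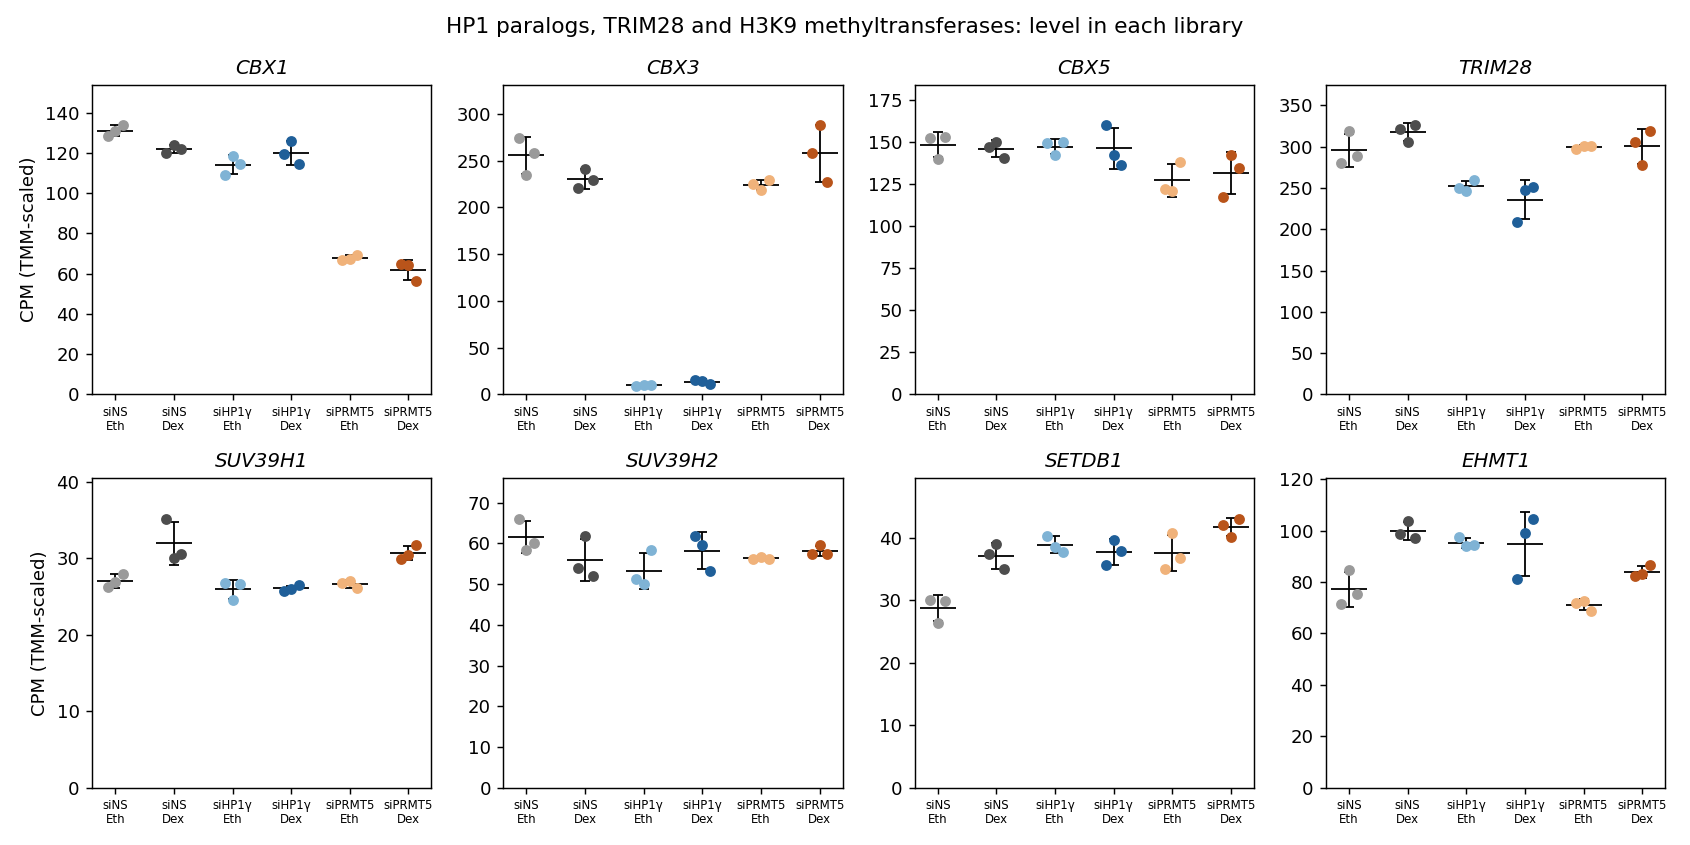
Level of each of the 8 genes in CPM (y axis, from 0) in the 6 conditions (x axis). Each point is 1 library, the horizontal mark is the mean and the bar is the SD of 3 replicates; CBX3 is near 0 in both siHP1γ conditions, CBX1 is lowest in both siPRMT5 conditions, and CBX5 lies between 117.5 and 159.9 CPM throughout.

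Neither CBX5 nor CBX1 rose in RNA level when CBX3 was depleted. All libraries were taken at a single time after transfection, and the counts hold no protein levels. CBX5, the gene of HP1α, was at 152, 140.0 and 153 CPM in siNS Eth cells and at 149.6, 142 and 149.9 CPM in siHP1γ Eth cells. In the Dex libraries it was at 147, 150.2 and 141 CPM in siNS cells and at 159.9, 142 and 136 CPM in siHP1γ cells. The libraries of the 2 groups overlapped in both treatments. Its log2 fold change was -0.01 (95% interval -0.17 to 0.15) with Eth and 0.00 (-0.16 to 0.16) with Dex, so an increase of CBX5 by more than 1.11-fold with Eth or 1.12-fold with Dex lies outside these intervals. Leaving out single libraries moved these values between -0.06 and 0.01 with Eth and between -0.07 and 0.05 with Dex. The values and the bounds depend on the TMM scaling. With library size as the only scaling, the log2 fold change of CBX5 with Eth was 0.0451, and no interval is given for that scaling.

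CBX1, the gene of HP1β, was lower rather than higher in siHP1γ Eth cells. It was at 128, 131 and 134 CPM in siNS Eth cells and at 109, 118.5 and 115 CPM in siHP1γ Eth cells, and these libraries did not overlap. The log2 fold change was -0.20 (95% interval -0.34 to -0.06, adjusted p = 0.023). The call was lost without siNS Eth replicate 3 (-0.20, adjusted p = 0.057) or siHP1γ Eth replicate 1 (-0.18, adjusted p = 0.089), and with library size as the only scaling (-0.14, adjusted p = 0.11) or no filter on low counts (-0.19, adjusted p = 0.13). With Dex, CBX1 was at 119.7, 124 and 122 CPM in siNS cells and at 119.4, 126 and 114 CPM in siHP1γ cells, which overlapped, with a log2 fold change of -0.02 (95% interval -0.16 to 0.11, adjusted p = 0.84). An increase of CBX1 by more than 1.08-fold with Dex lies outside that interval. That bound too depends on the TMM scaling, and with library size as the only scaling the value with Dex was 0.059. The difference between the effects on CBX1 with and without Dex did not pass edgeR's interaction test (0.18, adjusted p = 0.34).

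The summed RNA level of the 3 HP1 genes therefore dropped with CBX3. In CPM the sum was 535 ± 26.1 (SD, n = 3) in siNS Eth cells and 271 ± 3.59 in siHP1γ Eth cells, or 50.7% of siNS, and 498 ± 15.0 and 279.8 ± 16.8 with Dex, or 56.2%. CBX5 has a long mRNA (11546 bases in the canonical transcript, against 2182 for CBX1 and 2061 for CBX3), so that levels are compared between genes only after division by transcript length. Whether the library kit reads whole transcripts or their ends is not given in the sources used here, and length matters only in the former case. In CPM per kb, siNS Eth cells had 124 ± 9.74 of CBX3, 60.0 ± 1.25 of CBX1 and 12.9 ± 0.63 of CBX5, and CBX3 made up 62.9% of the HP1 sum, CBX1 30.6% and CBX5 6.53%. Not divided by length, the shares were 47.7%, 24.5% and 27.8%. In siHP1γ Eth cells the shares per kb were 6.87% for CBX3, 74.8% for CBX1 and 18.3% for CBX5, and the sum per kb was 35.5% of siNS with Eth and 41.2% with Dex.

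**Figure D2:**
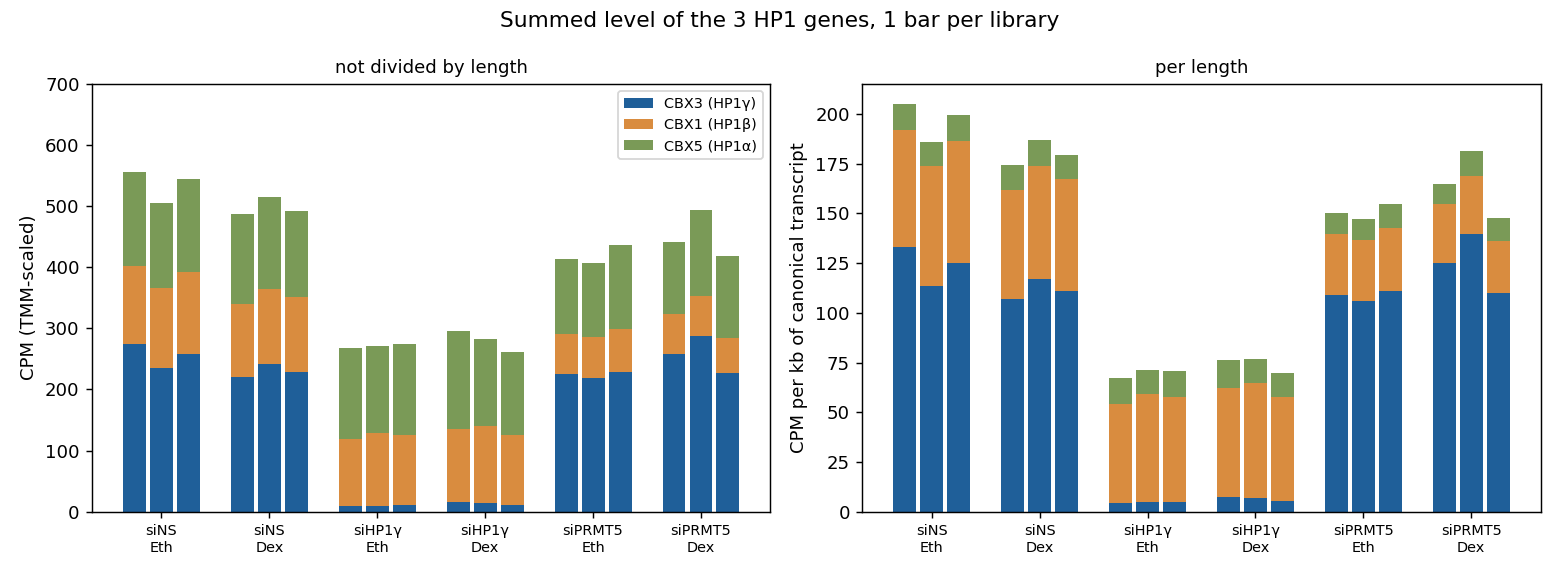
Summed level of CBX3, CBX1 and CBX5 in each of the 18 libraries (1 stacked bar per library, y axis from 0), in CPM on the left and in CPM per kb of canonical transcript on the right. The bars of siHP1γ cells lack most of the CBX3 part and keep CBX1 and CBX5 parts of similar height, and those of siPRMT5 cells have a smaller CBX1 part.

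Among the 5 other genes, TRIM28 fell in siHP1γ cells. Its product KAP1 binds HP1 proteins and brings SETDB1 to chromatin. TRIM28 was at 321.5, 306 and 326 CPM in siNS Dex cells and at 209, 248 and 251 CPM in siHP1γ Dex cells, which did not overlap, and the log2 fold change was -0.43 (SE 0.07, adjusted p = 7.38e-05). This call held without any 1 of the 18 libraries. With Eth, the siNS libraries were at 280.1, 318.5 and 289 CPM and the siHP1γ libraries at 251, 246 and 259 CPM, also without overlap. Its log2 fold change was -0.23 (SE 0.07, adjusted p = 0.016), and the call was lost without siNS Eth replicate 2 (-0.18, adjusted p = 0.089) or siHP1γ Eth replicate 2 (-0.22, adjusted p = 0.058), and with library size as the only scaling (-0.17, adjusted p = 0.069).

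SUV39H1 fell in siHP1γ cells with Dex. Its libraries were at 35.2, 30.1 and 30.5 CPM in siNS Dex cells and at 25.7, 26.0 and 26.4 CPM in siHP1γ Dex cells, so every depleted library lay below every control library. The log2 fold change was -0.29 (SE 0.08, adjusted p = 0.010), and -0.22 (adjusted p = 0.094) without siNS Dex replicate 1, the highest of the controls. The call was also lost with no filter on low counts (adjusted p = 0.052), with library size as the only scaling (0.063) and with only the 6 libraries compared (0.050). With Eth the libraries overlapped, at 26.2, 26.9 and 28.0 CPM in siNS and 26.7, 24.5 and 26.6 CPM in siHP1γ cells (log2 fold change -0.06, 95% interval -0.24 to 0.12). The paralog SUV39H2 was at 66.1, 58.5 and 60.2 CPM in siNS Eth cells and at 51.3, 50.03 and 58.3 CPM in siHP1γ Eth cells, with a log2 fold change of -0.21 (95% interval -0.38 to -0.04, adjusted p = 0.057). It came under the threshold when single libraries were left out, at adjusted p = 0.044 without siNS Eth replicate 2, 0.032 without siNS Dex replicate 2, 0.023 without siHP1γ Eth replicate 3, 0.038 and 0.040 without siHP1γ Dex replicates 1 and 3, and 0.046 without siPRMT5 Eth replicate 1 or 2. It also passed with at least 10 counts required in every library (adjusted p = 0.043) and with only the 6 libraries compared (0.032). With Dex it was 0.06 (95% interval -0.11 to 0.23). The difference between the depletion effects with and without Dex did not pass edgeR's interaction test for either paralog. It was -0.23 (adjusted p = 0.31) for SUV39H1 and 0.27 (adjusted p = 0.24) for SUV39H2. Exons of SUV39H2 overlap those of DCLRE1C, a DNA repair gene on the other strand, and without strand their reads cannot be told apart.

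SETDB1 and EHMT1 rose in siHP1γ Eth cells and were not called in siHP1γ Dex cells. SETDB1 was at 30.03, 26.4 and 29.9 CPM in siNS Eth cells and at 40.4, 38.6 and 37.8 CPM in siHP1γ Eth cells, with no overlap. Its log2 fold change was 0.44 (SE 0.09, adjusted p = 0.00032), and the call held without any 1 library. EHMT1 was at 71.3, 84.8 and 75.2 CPM in siNS Eth cells and at 97.6, 94.1 and 94.4 CPM in siHP1γ Eth cells (0.31, SE 0.08, adjusted p = 0.0060), and its call was lost without siNS Eth replicate 1 (0.24, adjusted p = 0.052). With Dex the log2 fold changes were 0.02 (95% interval -0.15 to 0.19) for SETDB1 and -0.08 (-0.24 to 0.09) for EHMT1, and the libraries overlapped. In siNS Dex cells SETDB1 was already at 37.4, 39.1 and 35.01 CPM and EHMT1 at 98.8, 103.7 and 97.1 CPM. Of the siNS and siHP1γ conditions, siNS Eth had the lowest mean for both genes. Over all 6 conditions this held for SETDB1 (28.8 CPM) but not for EHMT1, at 77.1 CPM in siNS Eth and 71.1 CPM in siPRMT5 Eth cells. The difference between the depletion effects with and without Dex did not pass as an interaction (SETDB1 -0.41, 95% interval -0.66 to -0.17, adjusted p = 0.10, EHMT1 -0.38, -0.62 to -0.14, adjusted p = 0.11). DESeq2 put the interaction of SETDB1 at an adjusted p of 0.0496. Exons of SETDB1 overlap those of CERS2, a ceramide synthase gene on the other strand.

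In all, 5 of the 8 genes were called in siHP1γ against siNS with Eth, 2 higher and 3 lower, where 31.8% of all genes tested were called, 16.5% higher and 15.2% lower. With Dex it was 3 of 8, all lower, where 24.0% of all genes were called, 11.7% higher and 12.3% lower. CBX3 is the siRNA target in both counts. The median log2 fold change of the 8 genes was -0.13 with Eth and -0.05 with Dex, beside 0.01 and 0.00 over all genes.

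**Figure D3:**
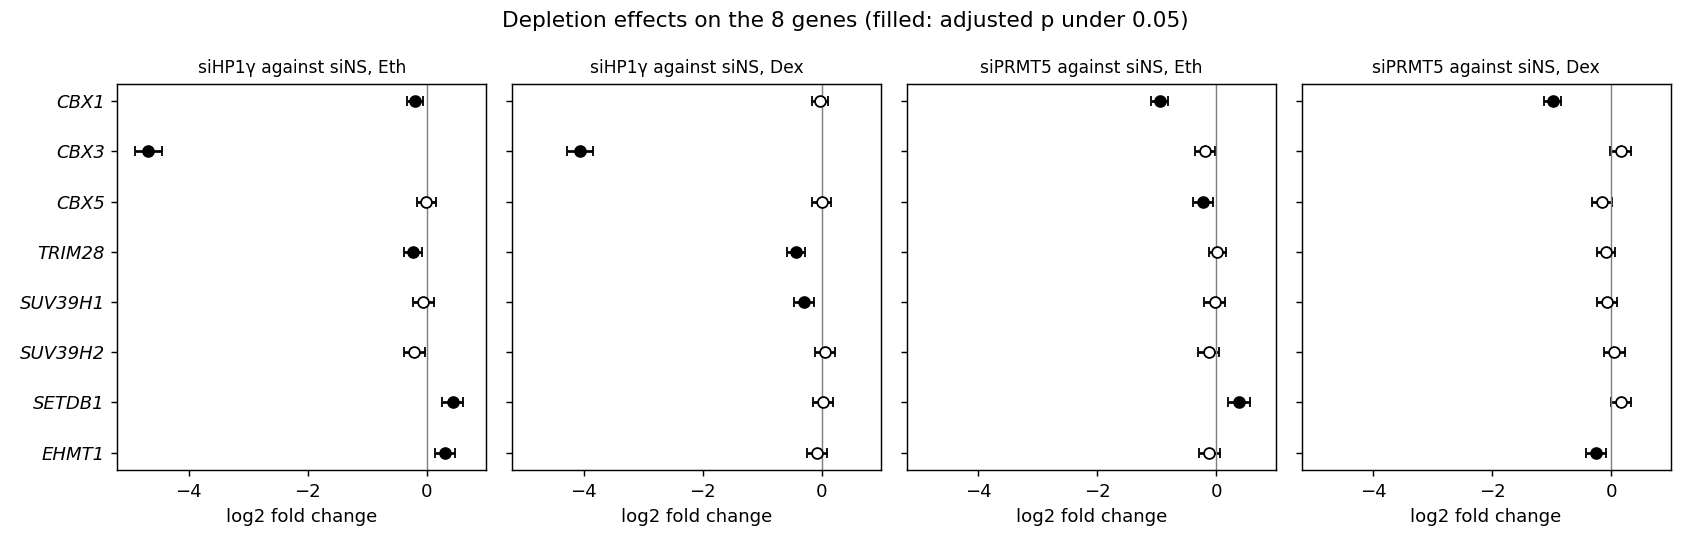
Log2 fold change of the 8 genes (rows) in siHP1γ and siPRMT5 against siNS, with Eth and with Dex (4 panels). Bars are 95% intervals and filled points passed an adjusted p under 0.05; CBX3 is near -4.69 and -4.06 in the siHP1γ panels, CBX1 near -0.95 and -0.98 in the siPRMT5 panels, and all other points lie between -0.43 and 0.44.

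CBX1 was the gene of the 8 that differed most between siPRMT5 and siNS cells. It was at 67.0, 67.04 and 69.5 CPM in siPRMT5 Eth cells against 128, 131 and 134 CPM in siNS Eth cells, or 51.8% of siNS. With Dex it was at 64.8, 64.3 and 56.4 CPM against 119.7, 124 and 122 CPM, or 50.7%. No siPRMT5 library came near a siNS library. The log2 fold change was -0.95 (SE 0.07, adjusted p = 3.30e-11) with Eth and -0.98 (SE 0.07, adjusted p = 1.75e-11) with Dex, and both calls held without any 1 library. Counts on its pseudogene CBX1P2, between 20 and 40 per siNS library and between 9 and 23 per siPRMT5 library, fell alongside (-1.06, adjusted p = 0.0026 with Eth, -0.98, adjusted p = 0.0036 with Dex), at 1.73% to 3.09% of the summed counts in siNS and siPRMT5 cells. In siHP1γ cells CBX1 was higher than in siPRMT5 cells, by a log2 difference of -0.75 (SE 0.07, adjusted p = 1.77e-09) for siPRMT5 against siHP1γ with Eth and -0.95 (SE 0.07, adjusted p = 1.73e-11) with Dex.

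The other HP1 genes moved less in siPRMT5 cells. CBX5 was at 122, 121 and 138 CPM in siPRMT5 Eth cells, below the siNS libraries, with a log2 fold change of -0.22 (95% interval -0.38 to -0.06, adjusted p = 0.024). Its call was lost without siNS Eth replicate 1 (-0.21, adjusted p = 0.062) or 3 (-0.20, adjusted p = 0.086) and without siPRMT5 Eth replicate 1 (-0.20, adjusted p = 0.089) or 2 (-0.19, adjusted p = 0.10). In the Dex libraries it was at 117.5, 142 and 135 CPM, with a log2 fold change of -0.15 (-0.31 to 0.01). CBX3 was at 224.5, 218 and 229 CPM in siPRMT5 Eth cells and 258, 288 and 227 CPM in siPRMT5 Dex cells, with log2 fold changes of -0.19 (95% interval -0.36 to -0.02, adjusted p = 0.072) and 0.16 (-0.01 to 0.34, adjusted p = 0.12). The value with Eth came under the threshold without siNS Eth replicate 2 (-0.25, adjusted p = 0.031), siHP1γ Dex replicate 1 or 3 (adjusted p = 0.039 and 0.041) or siPRMT5 Dex replicate 2 or 3 (adjusted p = 0.044 and 0.048) and with only the 6 libraries compared (adjusted p = 0.043), and that with Dex without siPRMT5 Dex replicate 3 (0.25, adjusted p = 0.023). In CPM per kb the summed HP1 level was at 76.5% of siNS with Eth and 91.4% with Dex.

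Of the methyltransferases, SETDB1 rose in siPRMT5 Eth cells as it did in siHP1γ Eth cells, against the same siNS Eth libraries. It was at 35.1, 40.74 and 36.8 CPM (log2 fold change 0.38, SE 0.09, adjusted p = 0.00083), and the call held without any 1 library. With Dex it was at 42.0, 40.2 and 43.1 CPM, with a log2 fold change of 0.17 (95% interval -0.00 to 0.34). EHMT1 was at 82.4, 83.03 and 86.6 CPM in siPRMT5 Dex cells, below the siNS Dex libraries, with a log2 fold change of -0.25 (SE 0.08, adjusted p = 0.015). Its call was lost without siNS Dex replicate 2 (-0.22, adjusted p = 0.065), siPRMT5 Dex replicate 1 (-0.23, adjusted p = 0.058) or siPRMT5 Dex replicate 2 (-0.24, adjusted p = 0.051). With Eth EHMT1 was at 71.9, 72.8 and 68.7 CPM, with a log2 fold change of -0.12 (-0.29 to 0.06). For SUV39H1, SUV39H2 and TRIM28 the log2 fold changes lay between -0.13 and 0.06, with intervals from -0.30 to 0.23.

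In siPRMT5 against siNS, 3 of the 8 genes were called with Eth, where 42.1% of all genes were called (20.6% higher and 21.6% lower), and 2 of 8 with Dex, where 42.4% of all genes were called (20.6% higher and 21.9% lower). These shares are near or below those over all genes. Between the depletions, 5 of 8 were called with Eth and 4 of 8 with Dex in siPRMT5 against siHP1γ, beside 48.4% and 49.9% of all genes. TRIM28 was among them, higher in siPRMT5 than in siHP1γ cells by 0.25 (SE 0.07, adjusted p = 0.0060) with Eth and 0.35 (SE 0.07, adjusted p = 0.00025) with Dex.

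Dex alone moved the 8 genes little. In siNS cells none was called in Dex against Eth by edgeR at an adjusted p under 0.01 and a fold change of 1.5, where 2.71% of all genes were called. With DESeq2 it was 0 as well, and 3 of the 8 had an unadjusted edgeR p under 0.05. EHMT1 and SETDB1 were higher with Dex by 1.29-fold each (log2 fold change 0.37, SE 0.08, adjusted p = 0.0033 and 0.37, SE 0.09, adjusted p = 0.0053), with no overlap between the Dex and the Eth libraries, and missed the limit on the fold change. SUV39H1 was higher in all Dex libraries than in all Eth libraries (0.24, 95% interval 0.07 to 0.41, adjusted p = 0.071). The HP1 genes had log2 fold changes of -0.10 (CBX1), -0.15 (CBX3) and -0.02 (CBX5).

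In depleted cells none of the 8 was called for Dex by edgeR or DESeq2, beside 1.67% of all genes in siHP1γ and 5.44% in siPRMT5 cells, and 1 and 3 of the 8 had an unadjusted edgeR p under 0.05. The residual CBX3 RNA in siHP1γ cells was higher in each Dex library (11.4 to 15.8 CPM, 121 to 201 counts) than in each Eth library (9.23 to 10.5 CPM, 87 to 117 counts), with a log2 fold change of 0.48 (SE 0.13, adjusted p = 0.027) that missed the threshold. Without siHP1γ Dex replicate 3 it was 0.60 (adjusted p = 0.0054) and passed. Its difference from the Dex response in siNS cells, 0.63 (95% interval 0.31 to 0.95), had an adjusted p of 0.068 in edgeR, 0.0068 in edgeR with no filter on low counts and 0.014 in DESeq2, and of 0.032 without siNS Eth replicate 2, 0.021 without siHP1γ Dex replicate 3 and 0.043 or 0.048 without siPRMT5 Dex replicate 2 or 3. The corresponding difference in siPRMT5 cells, 0.35 (0.11 to 0.60), had an adjusted p of 0.093, and of 0.044 without siNS Eth replicate 2, 0.042 without siHP1γ Dex replicate 1 and 0.031 without siPRMT5 Dex replicate 3. For the interactions, edgeR called none of the 8 genes, where 0.399% of all genes were called for HP1γ and 3.80% for PRMT5 depletion, with 4 and 1 of the 8 at an unadjusted p under 0.05, and DESeq2 called 2 (CBX3 and SETDB1) and 0. SUV39H1 had log2 responses to Dex of 0.01 (95% interval -0.17 to 0.18) in siHP1γ and 0.20 (0.03 to 0.38) in siPRMT5 cells, SETDB1 of -0.04 (-0.21 to 0.12) and 0.15 (-0.02 to 0.33), and EHMT1 of -0.01 (-0.18 to 0.16) and 0.24 (0.07 to 0.41).

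Per length of transcript, the order of the 8 genes in siNS Eth cells was CBX3 (124 ± 9.74 CPM per kb), TRIM28 (87.9 ± 5.99), CBX1 (60.0 ± 1.25), SUV39H2 (20.1 ± 1.31), EHMT1 (15.1 ± 1.36), CBX5 (12.9 ± 0.63), SUV39H1 (9.87 ± 0.33) and SETDB1 (6.52 ± 0.47). No neighbours in this order had overlapping libraries, since the lowest EHMT1 library was at 14.0 and the highest CBX5 library at 13.25 CPM per kb. Not divided by length, the levels run in another order, with TRIM28 at 295.8 CPM and CBX3 at 255.5, CBX5 at 148.5 and CBX1 at 131.0, EHMT1 at 77.1 and SUV39H2 at 61.6, and SETDB1 at 28.8 and SUV39H1 at 27.01 CPM, of which the last pair overlapped. In siHP1γ Eth cells CBX3 was the last of the 8 per length, at 4.80 ± 0.32 CPM per kb.

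CBX5 lies head to head with HNRNPA1, an RNA-binding protein gene with many processed pseudogenes, so that its counts are uncertain, and with only 59 bases between their annotated starts. The gap is shown because the counts of these neighbours did not move alike in siHP1γ cells. It spans chr12:54280134-54280192 on hg38 (plus strand of GENCODE 44, from the start of CBX5, which is on the minus strand, to the start of HNRNPA1), holds 62.7% G and C, and has 6 CG dinucleotides, marked in capitals.
CBX5 to HNRNPA1: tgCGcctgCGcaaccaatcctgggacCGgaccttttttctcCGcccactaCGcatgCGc
HNRNPA1 was at 168, 139 and 159.7 CPM in siNS Eth cells and at 108, 104 and 107 CPM in siHP1γ Eth cells, or 68.4% of siNS, with a log2 fold change of -0.55 (SE 0.08, adjusted p = 1.54e-05). In the Dex libraries it was at 75.8% (-0.40, SE 0.08, adjusted p = 0.00073), whereas CBX5 across the gap was at 99.2% and 100.1% of siNS. In siPRMT5 cells both neighbours were called lower with Eth, HNRNPA1 at 78.1% of siNS (-0.36, adjusted p = 0.0011) and CBX5 at 85.7%, and neither with Dex, HNRNPA1 at 87.1% (-0.20, adjusted p = 0.051) and CBX5 with a log2 fold change of -0.15. HNRNPA2B1 beside CBX3 was higher in siPRMT5 cells, at 116% and 118.5% (adjusted p = 0.0036 and 0.00094).

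Beyond the 8 genes, 48 others of H3K9 methylation and HP1 biology were listed by role, and 45 were tested. The list was chosen with earlier results of these data known and no set test was run, so the shares called are descriptive only. EHMT2, the gene of G9a, had 1 count in all 18 libraries, DAXX had 18 and PRDM16 had 14, so that these 3 were not tested and their levels are not read here. In siHP1γ against siNS, 22 of the 45 were called with Eth (15 higher and 7 lower) and 12 with Dex (5 higher and 7 lower), or 48.9% and 26.7%, beside 31.8% and 24.0% of all genes. In siPRMT5 against siNS it was 30 with Eth (22 higher and 8 lower) and 27 with Dex (21 higher and 6 lower), or 66.7% and 60.0%, beside 42.1% and 42.4% of all genes. The median log2 fold change of the 45 was 0.16, 0.09, 0.21 and 0.19 in these 4 comparisons, beside values from 0.00 to 0.01 over all genes.

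LBR, UHRF1 and TASOR had the largest drops of the list in siHP1γ cells, in both treatments. The HP1 partner LBR, the lamin B receptor, which ties heterochromatin and HP1 to the nuclear envelope, was at 208, 168.5 and 181 CPM in siNS Eth cells and at 63.5, 69.5 and 79.0 CPM in siHP1γ Eth cells. The log2 fold change was -1.39 (SE 0.12, adjusted p = 4.10e-09) with Eth and -0.96 (SE 0.12, adjusted p = 1.68e-06) with Dex. TRIM24, a bromodomain protein of the TRIM28 family, fell by 0.59 and 0.42 on the log2 scale, and INCENP, a scaffold of the chromosomal passenger complex, and AURKB, its kinase, fell by 0.38 and 0.29 with Dex. POGZ, which displaces HP1 from chromatin in mitosis, rose with Eth (0.55). Of the 13 HP1 partners tested, 1 rose and 4 fell with Eth, which is 38.5% called and near the 31.8% of all genes, and 1 rose and 5 fell with Dex, or 46.2% beside 24.0%.

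UHRF1, a reader of H3K9 methylation that also guides maintenance DNA methylation, was at 36.9, 39.9 and 37.3 CPM in siNS Eth cells and at 17.6, 22.5 and 24.6 CPM in siHP1γ Eth cells. It fell by 0.81 (SE 0.12, adjusted p = 1.13e-05) with Eth and 0.84 (SE 0.12, adjusted p = 7.98e-06) with Dex on the log2 scale. TASOR, the scaffold of the HUSH silencing complex, was at 131, 121 and 117 CPM in siNS Eth cells and at 72.5, 79.96 and 72.0 CPM in siHP1γ Eth cells, and fell by 0.72 with Eth and 0.70 with Dex (adjusted p = 4.48e-06 and 6.38e-06). MORC2, an ATPase that works with HUSH, rose by 0.35 with Eth, and CDYL, a chromodomain partner of G9a, by 0.33 with Eth and 0.24 with Dex. All other writers and writer partners of this list that were tested had log2 fold changes of at most 0.42 in size in siHP1γ cells.

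Of 11 H3K9 demethylases in siHP1γ cells, 7 rose with Eth (63.6%, beside 16.5% of all genes called higher) and 2 with Dex (18.2%, beside 11.7%), and no decrease was called. The share called with Dex is below the 24.0% of all genes called in either direction. Of these calls, KDM3A, KDM4A and PHF2 with Eth and KDM4B with Dex were lost in some fits with a single library left out. KDM7A, which removes H3K9 and H3K27 dimethylation, was at 14.0, 14.3 and 14.2 CPM in siNS Eth cells and at 26.0, 27.6 and 26.7 CPM in siHP1γ Eth cells. It rose by 0.92 (SE 0.11, adjusted p = 5.95e-07) with Eth and 0.81 (SE 0.11, adjusted p = 3.18e-06) with Dex. With Eth PHF8, KDM4B and KDM3B, which remove methyl groups from H3K9, rose by 0.61, 0.39 and 0.37. As for SETDB1 and EHMT1, the siNS Eth libraries are those that the counts with Eth rest on.

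**Figure D4:**
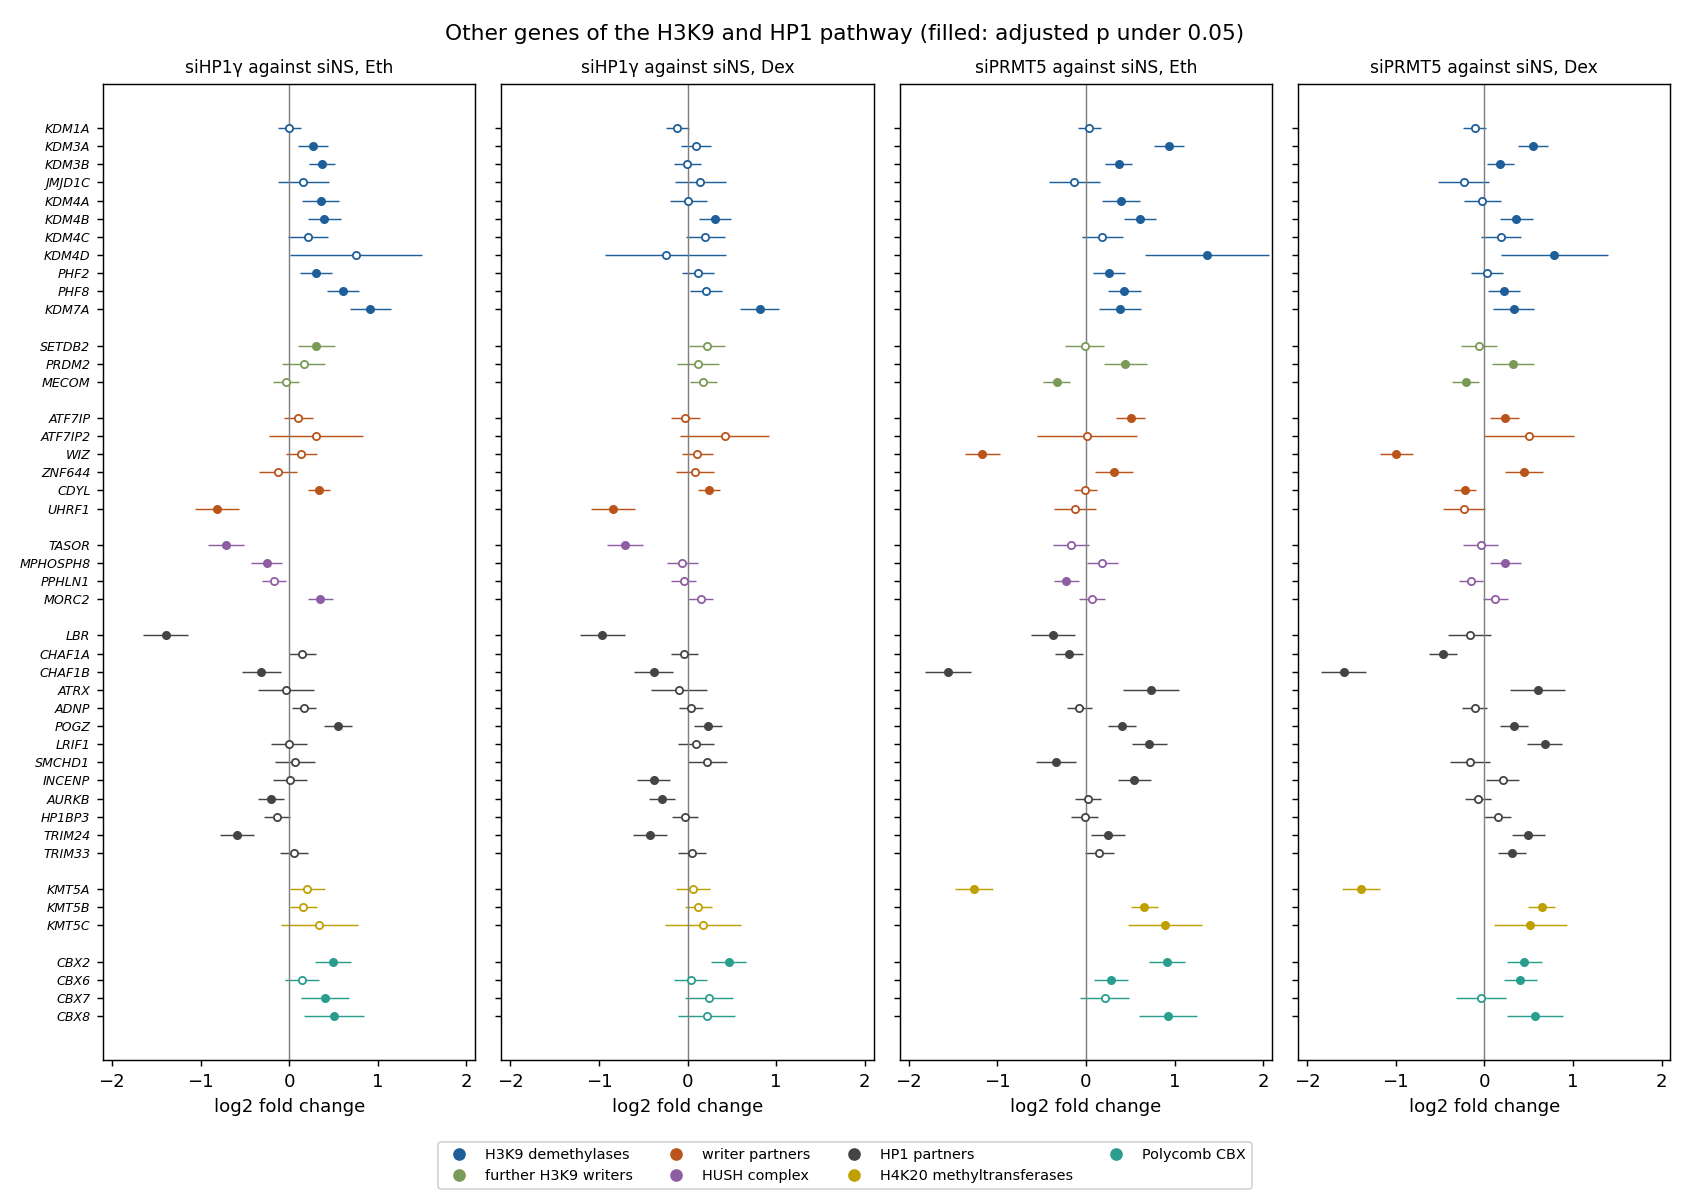
Log2 fold change (x axis) of 44 of the 45 other H3K9 and HP1 genes tested (rows, coloured by role) in siHP1γ and siPRMT5 against siNS, with Eth and with Dex (4 panels). Bars are 95% intervals and filled points passed an adjusted p under 0.05; LBR, UHRF1 and TASOR lie furthest to the left in the siHP1γ panels and CHAF1B, KMT5A and WIZ in the siPRMT5 panels.

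In siPRMT5 cells the largest drops of the list were those of CHAF1B, KMT5A and WIZ. CHAF1B, a subunit of the chromatin assembly factor that brings HP1 to replicating DNA, was at 25.6, 21.2 and 23.9 CPM in siNS Eth cells and at 7.83, 7.98 and 8.20 CPM in siPRMT5 Eth cells. It fell by 1.55 (SE 0.12, adjusted p = 1.91e-10) with Eth and 1.59 (SE 0.12, adjusted p = 8.91e-11) with Dex on the log2 scale. KMT5A, which writes H4K20 monomethylation, fell by 1.26 and 1.39, and WIZ, a zinc finger partner of G9a and GLP, by 1.17 and 0.99 (adjusted p between 4.48e-11 and 2.67e-09). CHAF1A, the partner subunit of CHAF1B, fell by 0.47 with Dex.

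Most other calls in siPRMT5 cells were increases. KMT5B and KMT5C, which write H4K20 di- and trimethylation, rose with Eth by 0.66 and 0.89, and KMT5B with Dex by 0.65. Of the 11 demethylases 8 rose with Eth (72.7%) and 6 with Dex (54.5%), beside 20.6% of all genes called higher in each and 42.1% and 42.4% called in either direction. Among them were KDM3A (0.93 and 0.55) and KDM4B (0.61 and 0.36) in both and KDM4D (1.36), PHF8 (0.43), KDM4A (0.40), KDM7A (0.38) and KDM3B (0.37) with Eth. The value of KDM4D rests on few counts, 7 to 18 per siNS Eth library and 19 to 40 per siPRMT5 Eth library. Of the demethylase calls, PHF2 with Eth and KDM3B, KDM4D, PHF8 and KDM7A with Dex were lost in some fits with a single library left out. Of the HP1 partners, the chromatin remodeller ATRX rose by 0.73 and 0.60, LRIF1 by 0.71 and 0.68 and POGZ by 0.41 and 0.33, INCENP rose by 0.55 with Eth and TRIM24 by 0.49 with Dex. Of the writers and their partners, ATF7IP, which stabilises SETDB1, rose by 0.50 and PRDM2 by 0.44 with Eth, ZNF644, a partner of WIZ, by 0.45 with Dex, and MECOM fell by 0.33 with Eth. CDYL fell by 0.22 with Dex.

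CBX2, CBX6 and CBX8 are Polycomb genes, whose proteins share the chromodomain with HP1 and read H3K27 trimethylation. CBX2 was at 20.6, 22.3 and 19.6 CPM in siNS Eth cells, 31.0, 29.4 and 28.0 CPM in siHP1γ Eth cells and 40.8, 41.9 and 35.5 CPM in siPRMT5 Eth cells. It rose by 0.50 with Eth and 0.47 with Dex in siHP1γ and by 0.92 and 0.45 in siPRMT5 cells. CBX8 rose by 0.93 and 0.57 in siPRMT5 cells, and CBX6 by 0.41 with Dex in siPRMT5 cells. In the Dex response none of the 45 genes was called in siNS, siHP1γ or siPRMT5 cells by edgeR or DESeq2. Of all genes, edgeR called 2.71%, 1.67% and 5.44%. Of the 45, 9, 7 and 12 had an unadjusted edgeR p under 0.05, and 2, 0 and 7 had an adjusted p under 0.05 with no fold limit.

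The following calls on named genes of this list lost significance when a single library was left out. In siHP1γ against siNS with Eth these were KDM3A (0.27, and 0.25 and 0.20 without siNS Eth replicates 1 and 3), KDM4A (0.35, and 0.31 and 0.32 without siNS Eth or siHP1γ Eth replicate 3) and PHF2 (0.30, and 0.21 without siHP1γ Eth replicate 1). AURKB with Eth was at -0.20, with -0.17 to -0.21 without siNS Eth replicate 2 or 3 or siHP1γ Eth replicate 2 or 3, and CHAF1B at -0.31, with -0.22 to -0.32 without siNS Eth replicate 1 or 3 or siHP1γ Eth replicate 2. MPHOSPH8 was at -0.25, with -0.19 to -0.24 without siNS Eth replicate 1 or 3 or siHP1γ Eth replicate 1, and SETDB2 at 0.31, with 0.25 to 0.31 without any one of the siNS Eth replicates or siHP1γ Eth replicate 2. CBX7 was at 0.40, with 0.35 to 0.38 without siNS Eth replicate 1 or 3 or siHP1γ Eth replicate 2 or 3, and CBX8 at 0.50, with 0.37 to 0.48 without siNS Eth replicate 1 or 2 or siHP1γ Eth replicate 1 or 2. With Dex they were CHAF1B (-0.38, and -0.31 without siNS Dex replicate 1 or siHP1γ Dex replicate 2), KDM4B (0.31, and 0.27 and 0.24 without siNS Dex or siHP1γ Dex replicate 2) and POGZ (0.23, and 0.16 to 0.24 without siNS Dex replicate 2 or 3 or siHP1γ Dex replicate 2).

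In siPRMT5 against siNS with Eth the calls lost in this way were CBX6 (0.29, and 0.23 and 0.21 without siNS Eth replicate 2 and siPRMT5 Eth replicate 3), LBR (-0.37, and -0.28 to -0.34 without siNS Eth replicate 1 or siPRMT5 Eth replicate 1 or 2) and PHF2 (0.26, and 0.18 to 0.26 without siNS Eth replicate 1 or 3 or siPRMT5 Eth replicate 2). TRIM24 was at 0.25, with 0.15 to 0.25 without siNS Eth or siPRMT5 Eth replicate 2 or 3, and ZNF644 at 0.31, with 0.26 to 0.28 without siNS Eth replicate 3 or siPRMT5 Eth replicate 2 or 3. CHAF1A was at -0.19 and lost its call without siNS Eth replicate 2 or 3, siNS Dex replicate 1 or 3, siHP1γ Eth replicate 2 or 3, siPRMT5 Eth replicate 1 or 3 or siPRMT5 Dex replicate 3 (-0.14 to -0.21). With Dex they were ATF7IP (0.23, and 0.22 and 0.18 without siNS Dex replicate 3 and siPRMT5 Dex replicate 2), KDM4D (0.79, and 0.55 and 0.58 without siNS Dex replicate 1 and siPRMT5 Dex replicate 3) and KDM7A (0.33, and 0.29 without siNS Dex replicate 2 or siPRMT5 Dex replicate 3). KDM3B was at 0.18, with 0.14 to 0.19 without siNS Dex or siPRMT5 Dex replicate 2 or 3, PHF8 at 0.22, with 0.18 to 0.21 without the same libraries, and PRDM2 at 0.33, with 0.23 to 0.31 without them. KMT5C was at 0.52, with 0.35 to 0.54 without siNS Dex replicate 1 or 2 or siPRMT5 Dex replicate 1 or 3, MECOM at -0.21, with -0.16 to -0.18 without siNS Dex replicate 2 or 3 or siPRMT5 Dex replicate 1, and MPHOSPH8 at 0.24, with 0.20 to 0.23 without siNS Dex replicate 1 or 2 or siPRMT5 Dex replicate 1.

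The genes most like CBX1 across the 18 libraries, by Pearson's correlation of log2 CPM over 11410 genes that averaged 5 CPM or more, were SLC35F3 (0.99), YWHAQ (0.98) and WDR45BP1 (0.98). Those most like CBX5 were IPO8 (0.92), SHOC2 (0.89) and C5orf22 (0.89). The 18 libraries fall into 6 conditions and share their depth and scaling, so these values describe likeness of pattern only, with no test.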

How the data were processed

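RNA of 18 libraries (6 conditions, 3 replicates each, grouped by the sample titles) was counted. The authors mapped Lexogen libraries on hg38 with Bowtie2 (2.4.2), which does not split reads across introns, and deposited unnormalized counts per symbol from htseq-count (0.9.1). The kit's protocol, strand, read length and annotation are not given in the sources used here. A deposited table of the authors' own DESeq2 comparisons (fold changes and p-values) was not used. Counts were filtered with filterByExpr (15298 genes), TMM-scaled and fitted in 1 edgeR quasi-likelihood model (edgeR 4.0.16, R 4.3.3, 12 residual degrees of freedom), which was tested on simulated data. Benjamini-Hochberg adjustment ran over all genes tested. DESeq2 1.42.0, other scalings and filters, a replicate block and leaving out each library were alternatives. Counts of 8682992 to 12472381 per library limit precision for low genes.

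The 8 genes and the lists of other genes were chosen with earlier results of these data known. Named from the lists were genes called in at least 2 of the depletion comparisons and, per role, up to 3 with the largest changes in siHP1γ cells. Neighbours of CBX3 and CBX5, pseudogenes of the 8 genes, PRMT5, and the 3 genes (averaging 5 CPM or more) most correlated with CBX1 and with CBX5 were named as well. Loci, lengths and sequences are from GENCODE 44 on hg38. Some genes are not reported here, and counts over the lists include them.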

Additional observations from a re-analysis of the deposited data

Results flagged for a closer look

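For PRMT5, the target of the siRNA, the Dex response differed between siPRMT5 and siNS cells by the interaction test (edgeR), with a log2 difference of 0.57 (95% interval 0.26 to 0.89, adjusted p = 0.030). It was at 6.10 to 8.37 CPM in siPRMT5 Eth and 9.39 to 11.5 CPM in siPRMT5 Dex libraries.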

How the results depend on the processing

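Against siNS, the calls on CBX3 (siHP1γ, Dex and Eth), CBX1 (siPRMT5, Dex and Eth), TRIM28 (siHP1γ Dex) and SETDB1 (siHP1γ Eth and siPRMT5 Eth) kept their direction and stayed past the threshold under every other tool, scaling, filter and block run and without any 1 library. Requiring a fold change of at least 1.5 beside the adjusted p under 0.05 left 1 of the 8 genes called in each depletion against siNS, with Eth and with Dex (CBX3 in siHP1γ, CBX1 in siPRMT5 cells), and 4 of the other H3K9 and HP1 genes in siHP1γ Dex, 6 in siHP1γ Eth, 7 in siPRMT5 Dex and 13 in siPRMT5 Eth cells. With no fold limit and an adjusted p under 0.05, 2 of the 8 were called for Dex in siNS cells (EHMT1 and SETDB1) and 1 in siHP1γ cells (CBX3). With library size as the only scaling, 3 of the 8 were called in siHP1γ Eth cells, and among all genes called in siHP1γ against siNS the share that was higher was 69.2% with Dex (48.7% with TMM) and 63.8% with Eth (52.1%). For the interaction with HP1γ depletion, DESeq2 called 2 of the 8 and the fit with no filter called 1, and over all genes these called 298 and 374 against 61. Leaving out 1 library gave 1 to 3 calls among the 8 in siPRMT5 Dex against siNS (1 without siNS Dex 2, siPRMT5 Dex 1 or siPRMT5 Dex 2), 0 to 1 for Dex in siHP1γ cells (1 without siHP1γ Dex 3), and 0 to 1 for the interactions with HP1γ depletion (1 without siNS Eth 2, siHP1γ Dex 3, siPRMT5 Dex 2 or siPRMT5 Dex 3) and with PRMT5 depletion (1 without siNS Eth 2, siHP1γ Dex 1 or siPRMT5 Dex 3).

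Small values near 0 changed sign. With library size as the only scaling, CBX1 in siHP1γ Dex was at 0.059, EHMT1 in siHP1γ Dex at 0.0065, CBX5 in siHP1γ Eth at 0.0451 and the Dex response of EHMT1 in siHP1γ cells at 0.00673, and with no filter CBX5 in siHP1γ Dex was at -0.00454. With 1 library left out, the ranges that crossed 0 were, in siHP1γ against siNS with Dex, -0.0584 to 0.00897 for CBX1, -0.0668 to 0.0497 for CBX5, -0.0177 to 0.0667 for SETDB1 and -0.154 to 0.0303 for EHMT1, and -0.0573 to 0.0113 for CBX5 with Eth. In siPRMT5 against siNS they were -0.0966 to 0.0224 for SUV39H1 with Dex, and -0.0262 to 0.0713 for TRIM28 and -0.0515 to 0.00107 for SUV39H1 with Eth. For the Dex response in siHP1γ cells they were -0.0758 to 0.00224 for SETDB1, -0.083 to 0.101 for EHMT1 and -0.0323 to 0.0341 for SUV39H1. None of these values was called. The cause of these changes was not tested.

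Same-numbered replicates of different conditions correlated between -0.13 and 0.17, with 4 of 27 pairs over 0.1. Of the 18 libraries, 10 correlated best with a library of their own number. These correlations, of deviations from the mean of each condition's 3 libraries, cannot settle whether the numbers pair the samples. With the replicate block the counts of calls among the 8 genes were the same as without it (3 and 5 in siHP1γ with Dex and Eth, 2 and 3 in siPRMT5), and the other genes gave 12 and 22 in siHP1γ and 27 and 29 in siPRMT5 cells, where CHAF1A with Eth (adjusted p = 0.0529) and PHF8 with Dex (adjusted p = 0.0506) were no longer called. Counts of 8 to 20 per library limit what can be read from CBX3P9 in siHP1γ cells, 3 replicates limit the detection of small changes, and the strand setting of the counting is not given in the sources used here.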
